A study of Mus musculus with 2 samples.

Results

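The genes described here are 52 mouse interferon-induced genes, found by symbol among the 32285 genes of the count tables and grouped into subfamilies. They are 6 genes of the Ifi200 family, 7 Ifit and Ifitm genes, 8 guanylate-binding proteins (Gbp), 7 immunity-related GTPases (Irg), 4 Schlafen genes (Slfn), 2 Oas-like genes, 4 genes of the STAT and IRF factors, Isg15 with Usp18, and 12 other effectors. They were measured in murine CD8+ T cells from lymph node, in 1 library labelled HC and 1 labelled NC, by 10x Genomics 3' v3.1 single-cell sequencing. The series asks how an electrical stimulus applied through the matrix affects CD8+ T lymphocytes; the labels do not say which library was stimulated, nor what HC and NC stand for, so both libraries carry their labels throughout. No strain, age, treatment or time is given for either. Cells kept here, with at least 500 genes, at least 1000 UMIs (unique molecular identifiers, 1 per captured transcript) and at most 10% mitochondrial UMIs, numbered 13617 in HC and 13641 in NC. Each library is 1 sample, so no test between them is possible: the 95% intervals below are exact (Poisson for a level, binomial for a share or a ratio) and cover counting error only, not the spread between cultures or animals.

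Interferons are secreted proteins that make cells switch on antiviral and antimicrobial genes. Type I interferons signal through Ifnar1 and Ifnar2 to a complex with Stat2 and Irf9, which binds the interferon-stimulated response element (ISRE), whereas interferon-gamma signals through Ifngr1 and Ifngr2 and acts at the gamma-activated site (GAS). Activated CD8+ T cells are themselves a main source of interferon-gamma. Cells were also divided by whether they carried a UMI of Mki67, which encodes the Ki-67 protein of cycling cells, or of Egr2, a transcription factor induced by T cell receptor signals.

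The promoters of these genes were searched for the 2 elements. RefSeq promoters (GRCm38.p6, 250 bases before to 50 after a start) were found for 43 of the 52 genes and searched on both strands for the ISRE core GAAANNGAAA and the GAS core TTCNNNGAA. The ISRE core was in 27 of the 43 genes (62.8%), against 3.99% of all 27025 genes with a promoter. The GAS core was in 12 of the 43 (27.9%), against 9.55% of all genes. Both were in 8 genes and neither in 12. No promoter was found for Gbp4, Gbp6, Gbp8, Gbp9, Iigp1, Usp18, Zbp1, Rtp4 and Ifi27l2a, so these were not searched. A match describes letters only and is not evidence of binding.

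The Ifi200 genes encode DNA-binding proteins of the PYHIN family and lie together on chromosome 1. In 5 of the 6, the promoter carried the same 10 letters, GAAATCGAAA, and in Ifi209 it held no core. The windows are shown because the core is shared by 5 genes of the family, and the stretch around it is nearly a copy between some of them. Capitals mark the ISRE core, and each window is read on the gene's strand, 5' to 3'.

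Ifi203, chr1:173942493-173942552, minus strand: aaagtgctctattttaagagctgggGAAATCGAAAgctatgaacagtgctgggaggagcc
Ifi206, chr1:173491324-173491383, minus strand: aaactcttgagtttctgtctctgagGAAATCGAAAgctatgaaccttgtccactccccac
Ifi208, chr1:173673582-173673641, plus strand: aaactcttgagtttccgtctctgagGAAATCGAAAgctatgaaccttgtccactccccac
Ifi213, chr1:173599311-173599370, minus strand: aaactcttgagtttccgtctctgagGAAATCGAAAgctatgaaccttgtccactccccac
Ifi214, chr1:173536002-173536061, minus strand: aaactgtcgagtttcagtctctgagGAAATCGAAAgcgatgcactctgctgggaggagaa

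Ifi208 and Ifi213 were identical over all 60 bases, and Ifi206 matched each of them at 59. Ifi214 matched each of the other 4 at 42 bases, and Ifi203 matched Ifi206, Ifi208 and Ifi213 at 34. In 4 Irg genes, GTPases that act on the membranes around intracellular parasites and bacteria, a GAS core and an ISRE core stood 2 bases apart. These 4 are shown because both elements fall within a single short stretch of the promoter. A close pair is not limited to Irg genes. In Bst2, not shown, an ISRE core stood 3 bases after a GAS core, and another ISRE core overlapped that GAS core. Capitals mark the GAS core and then the ISRE core.

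Igtp, chr11:58199496-58199546, plus strand: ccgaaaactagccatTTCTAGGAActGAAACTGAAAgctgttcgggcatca
Irgm2, chr11:58214887-58214937, plus strand: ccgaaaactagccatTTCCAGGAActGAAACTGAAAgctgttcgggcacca
Tgtp1, chr11:48992299-48992349, minus strand: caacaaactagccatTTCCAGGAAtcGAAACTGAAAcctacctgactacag
Tgtp2, chr11:49064258-49064308, minus strand: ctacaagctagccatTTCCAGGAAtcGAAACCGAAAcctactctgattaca

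Igtp and Irgm2 were identical at 49 of 51 bases, and Tgtp1 and Tgtp2 at 39 of 51. The promoters of 4 further genes are shown since their levels are described below. Ifitm2, with a level that differed between the libraries, and Isg15 hold an ISRE core on the gene's strand, Ifit1 holds the core on the other strand, and Irf1 holds a GAS core and no ISRE core. Capitals mark a single core in each window, and the Ifit1 and Isg15 windows hold further ISRE cores that are not marked. The window of Ifitm1 held no ISRE core, and those of Ifit3 and Ifit3b were identical over 60 bases.

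Ifitm2, chr7:140955973-140956032, minus strand: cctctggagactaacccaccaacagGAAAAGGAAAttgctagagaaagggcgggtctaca
Ifit1, chr19:34640779-34640838, plus strand: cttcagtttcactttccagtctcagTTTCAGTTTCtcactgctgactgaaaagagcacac
Isg15, chr4:156200856-156200915, minus strand: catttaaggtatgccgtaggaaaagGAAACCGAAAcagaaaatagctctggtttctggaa
Irf1, chr11:53769899-53769957, plus strand: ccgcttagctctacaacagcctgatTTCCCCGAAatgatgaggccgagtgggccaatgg

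Summed over these cells there were 114430972 UMIs in HC and 115789139 UMIs in NC, and the median cell held 7425 UMIs in HC and 6898 in NC. Markers of CD8+ T cells summed to 3828 CPM (UMIs per 1000000 UMIs of the kept cells) in HC and 4254 CPM in NC, and Cd4 had 2 UMIs in HC and 1 in NC. Of 6 B cell markers, 4 were lower in HC with intervals below 0, that of Ebf1 held 0, and Cd79b was higher, with 1596 UMIs in HC and 1442 in NC. Igkc, an antibody light chain of B cells, had 228 UMIs in HC and 2406 in NC, Cd79a had 38 in HC and 176 in NC, and the macrophage lysozyme Lyz2 had 0 in HC and 416 in NC. The defining macrophage genes C1qa and C1qb, the plasmacytoid dendritic cell gene Siglech and the neutrophil gene S100a9 were at 0 UMIs in both. The part of these cells in the differences below was not tested beyond the count of genes in cells with a Cd8 UMI and no such marker, which is given with the other settings. The libraries shared 49 barcodes among their kept cells.

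Of the 52 genes, 39 reached 5 CPM in at least 1 library and are called measured, and 13 did not. Together the 52 genes held 2356 CPM in HC and 2480 CPM in NC. Between the libraries most of the 39 differed little: 2 were at least 1.5-fold higher in HC, where 1.93% of all 8704 measured genes were, and 4 were at least 1.5-fold lower, where 1.47% of all were. The log2 ratio of HC over NC had a median of -0.16 over the 39 genes and of -0.03 over all measured genes. Of the 39, 31 had a ratio below 0, 27 of them with an interval below 0, and 8 had one above 0, 6 of them with an interval above 0. The same counts over all genes are not given here. With this many UMIs even a small ratio, such as -0.09 for Samhd1, has an interval clear of 0.

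**Figure D1:**
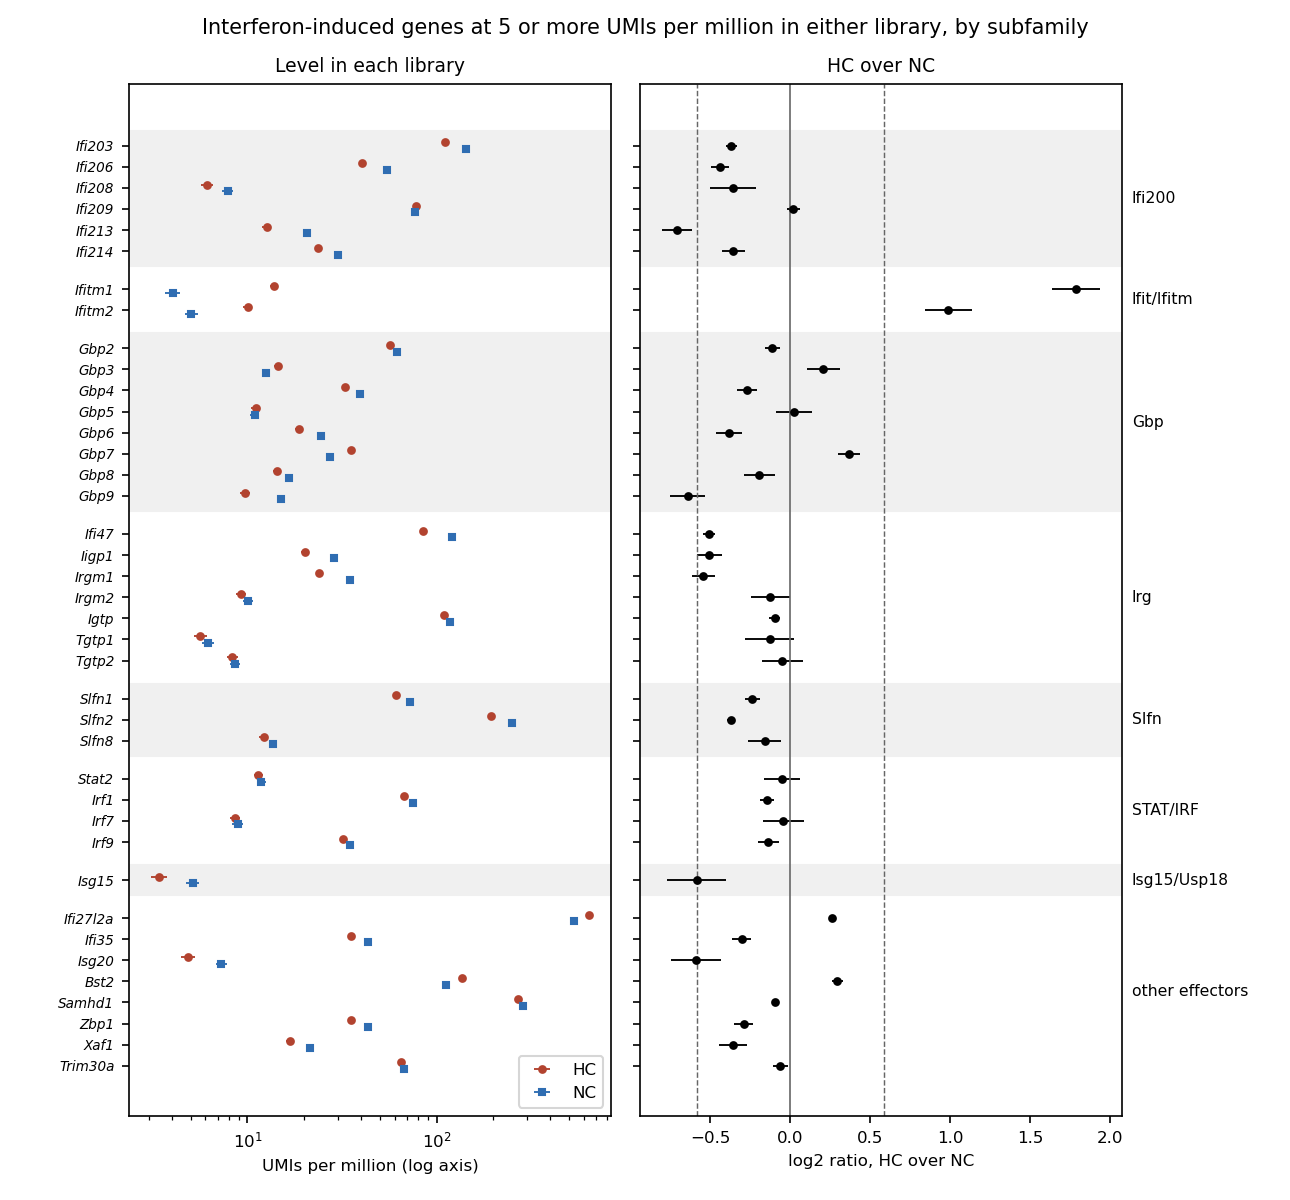
Levels of the 39 measured interferon-induced genes in HC and NC, in CPM on a log axis, grouped by subfamily, with the log2 ratio of HC over NC beside them; bars are exact 95% intervals from counting. Ifitm1 (1.79) and Ifitm2 (0.99) lie to the right of the 1.5-fold line, and Ifi213 (-0.71) and Gbp9 (-0.64) lie to the left of it.

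Among the 39 genes, Ifitm1 and Ifitm2 differed most between the libraries. Ifitm proteins sit in cell membranes and hinder the fusion of enveloped viruses. Ifitm1 had 1587 UMIs in HC and 465 in NC (13.9 CPM in HC and 4.02 CPM in NC), a log2 ratio of 1.79 (95% interval 1.64 to 1.94). Ifitm2 had 10.0 CPM in HC and 5.05 CPM in NC, a log2 ratio of 0.99 (0.84 to 1.14). Ifitm3, under 5 CPM in both, had 468 UMIs in HC and 277 in NC, a log2 ratio of 0.77 (0.56 to 0.99), so that all 3 neighbours in this cluster on chromosome 7 were higher in HC. Ifitm10, which lies apart from them, had 84 UMIs in HC and 106 in NC. The Ifit genes, whose proteins bind viral RNA, were close to the detection limit. Ifit1 had 81 UMIs in HC and 213 in NC, a log2 ratio of -1.38 with its interval below 0, Ifit3 had 45 in HC and 63 in NC, and Ifit3b had 3 in each. Reads of the near-identical Ifit3 and Ifit3b cannot be relied on to separate the 2 genes.

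All but 1 of the Ifi200 genes were lower in HC. Ifi213 had 12.6 CPM in HC and 20.6 CPM in NC, a log2 ratio of -0.71 (-0.80 to -0.61). Ifi206 had 40.4 CPM in HC and 54.8 CPM in NC (-0.44, -0.50 to -0.39), and Ifi203 had 110.6 CPM in HC and 142.9 CPM in NC (-0.37, -0.40 to -0.34). Ifi208 had 6.12 CPM in HC and 7.85 CPM in NC, and Ifi214 had 23.6 CPM in HC and 30.2 CPM in NC, a log2 ratio of -0.36 for each. Ifi209 had 78.0 CPM in HC and 76.9 CPM in NC (0.02, -0.02 to 0.06). The summed level of the family was 271.4 CPM in HC and 333.4 CPM in NC. These genes are paralogs, and how far the authors' counting separates their reads was not tested, so their separate levels are uncertain.

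Every measured Irg gene had a ratio below 0, although none passed 1.5-fold. Irgm1, which controls other Irg proteins, had 23.9 CPM in HC and 34.9 CPM in NC (log2 ratio -0.54, -0.61 to -0.47). Ifi47 had 84.8 CPM in HC and 120.4 CPM in NC (-0.51, -0.54 to -0.47), and Iigp1, which coats and ruptures parasite vacuoles, had 20.1 CPM in HC and 28.6 CPM in NC (-0.51, -0.58 to -0.43). Igtp was at 109.8 CPM in HC and 117.5 CPM in NC (-0.10, -0.13 to -0.06). With both libraries weighted to the same shares of Egr2 and Mki67 classes, a comparison described below, Irgm2 (0.0052), Igtp (0.026), Tgtp1 (0.034) and Tgtp2 (0.095) lay above 0 and the other 3 below. Unweighted, the intervals of Tgtp1 (-0.13) and Tgtp2 (-0.05) reached 0. Tgtp1 and Tgtp2 are near copies of each other, and Igtp overlaps Irgm2 on the same strand, so reads of each pair may be split.

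The Gbp genes did not move as a group. Gbp proteins are large GTPases that gather on microbes and their vacuoles in the cytosol. Gbp9 was 1 of the 4 genes past 1.5-fold lower, with 9.69 CPM in HC and 15.1 CPM in NC (log2 ratio -0.64, -0.75 to -0.53). Gbp6 had 18.7 CPM in HC and 24.4 CPM in NC (-0.38), and Gbp4 had 32.8 CPM in HC and 39.5 CPM in NC (-0.27, -0.33 to -0.21). Gbp7 went the other way, at 35.2 CPM in HC and 27.3 CPM in NC (0.37, 0.30 to 0.43). Gbp2 had 56.9 CPM in HC and 61.5 CPM in NC (-0.11, -0.16 to -0.06), and Gbp3 had 14.5 CPM in HC and 12.5 CPM in NC (0.21, 0.10 to 0.31). Gbp8 had 14.4 CPM in HC and 16.5 CPM in NC (-0.19), and Gbp5 had 11.1 CPM in HC and 10.9 CPM in NC, with an interval that holds 0. Across the family, 5 genes were below 0 and 3 above, and Gbp4, Gbp8 and Gbp9 overlap on chromosome 5, so their separate levels are uncertain.

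All 3 measured Schlafen genes were lower in HC, without passing 1.5-fold. Slfn2, which is needed to keep resting T cells quiescent, had 194.5 CPM in HC and 251.1 CPM in NC (log2 ratio -0.37, -0.39 to -0.34). Slfn1, which slows thymocyte growth when overexpressed, had 61.4 CPM in HC and 72.4 CPM in NC (-0.24, -0.28 to -0.19), and Slfn8 had 12.2 CPM in HC and 13.6 CPM in NC (-0.16). Slfn5 was under 5 CPM, with 119 UMIs in HC and 100 in NC. The Oas-like genes were almost absent: Oasl1 had 5 UMIs in HC and 3 in NC, and Oasl2 had 9 in HC and 11 in NC.

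The transcription factors lay near the libraries' baseline. Irf1, the early factor of interferon-gamma signalling, had 67.5 CPM in HC and 74.7 CPM in NC (log2 ratio -0.15, -0.19 to -0.10). Irf9 had 31.9 CPM in HC and 35.1 CPM in NC (-0.14), and Stat2 had 11.4 CPM in HC and 11.8 CPM in NC (-0.05). Irf7, the factor that amplifies the type I response, had 8.59 CPM in HC and 8.86 CPM in NC (-0.04, -0.17 to 0.08). Isg15, a ubiquitin-like protein, had 391 UMIs in HC and 594 in NC (3.42 CPM in HC and 5.13 CPM in NC, log2 ratio -0.59, -0.77 to -0.40). Usp18, which removes Isg15 from its targets and dampens the type I receptor, had 124 UMIs in HC and 187 in NC.

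The other effectors were mixed. Isg20, an exonuclease of single-stranded RNA, had 4.85 CPM in HC and 7.29 CPM in NC (log2 ratio -0.59, -0.74 to -0.43). Xaf1 had 16.8 CPM in HC and 21.5 CPM in NC (-0.36), and Ifi35 and Zbp1, a sensor of Z-form nucleic acid, had log2 ratios of -0.30 and -0.29. Bst2, or tetherin, which holds budding virions to the cell surface, was higher at 137.2 CPM in HC and 111.9 CPM in NC (0.29, 0.26 to 0.33). Ifi27l2a was higher as well, at 638 CPM in HC and 533 CPM in NC (0.26, 0.24 to 0.28), and after every cell was thinned to 2000 UMIs it was found in 67.1% of HC cells and 62.6% of NC cells. Samhd1, which breaks down deoxynucleotides, had 269.2 CPM in HC and 287 CPM in NC (-0.09, -0.12 to -0.07), and Trim30a had 64.5 CPM in HC and 67.3 CPM in NC (-0.06). Among the genes under 5 CPM, Rtp4 had 224 UMIs in HC and 394 in NC, Rsad2 had 21 in HC and 37 in NC, Ifi44 had 3 in HC and 13 in NC, and Ifih1, the RNA sensor MDA5, had 332 in HC and 388 in NC. Isg15 and Isg20 lay on the 1.5-fold line itself (log2 0.585 in size), and TMM scaling left 2 genes lower, not 4. Isg15 and Isg20 reached 5 CPM only through NC, and Ifitm1 only through HC.

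A wider pattern among these genes ran with Mki67. In HC, 9425 kept cells (69.2%) carried an Mki67 UMI and 4192 did not, and in NC 7285 (53.4%) did and 6356 did not. As shares of all UMIs, the 52 genes summed to 2140 CPM in Mki67-carrying and 3193 CPM in Mki67-lacking HC cells, and to 2052 CPM in Mki67-carrying and 3299 CPM in Mki67-lacking NC cells. Of the 38 genes measured in HC, 21 were at least 1.5-fold lower in Mki67-carrying cells, where 3.89% of all genes were, and none was higher, where 11.7% of all genes were. Of the 39 measured in NC, 28 were lower, where 4.33% of all genes were, and none was higher, where 10.5% were. Medians of the log2 ratio, Mki67-carrying over Mki67-lacking, were -0.62 in HC and -0.80 in NC for these genes, and 0.05 in HC and 0.03 in NC for all genes. Of the 37 genes measured in both libraries, 20 were at least 1.5-fold lower in both, where 2.58% of all genes were, and 36 had the same sign in both, as 88.6% of all genes did.

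These are shares of a class's UMIs, and Mki67-carrying cells held more UMIs: 9651 per cell on average in Mki67-carrying and 5598 in Mki67-lacking HC cells, and 10444 in Mki67-carrying and 6247 in Mki67-lacking NC cells. Counted per cell with no scaling, the 52 genes had 20.7 UMIs in Mki67-carrying and 17.9 in Mki67-lacking HC cells, and 21.4 in Mki67-carrying and 20.6 in Mki67-lacking NC cells, and the median log2 ratio was 0.17 in HC and -0.06 in NC. On that scale 6 genes were at least 1.5-fold higher and 1, Iigp1, lower in Mki67-carrying HC cells. In Mki67-carrying NC cells 2 were higher (Ifitm2 and Bst2) and 2 lower (Ifi213 and Iigp1). Depth alone adds 0.79 in HC and 0.74 in NC to every gene's log2 ratio on that scale. The all-gene medians, 0.05 in HC and 0.03 in NC before it, then lie past the 1.5-fold line. Those of these genes do not. The share of all genes past the fold per cell was not counted. With every cell thinned to 2000 UMIs, the class still taken from the whole cell, the mean was 4.64 UMIs in Mki67-carrying and 6.84 in Mki67-lacking HC cells, and 4.52 in Mki67-carrying and 7.0 in Mki67-lacking NC cells. So the genes made up a smaller part of the transcripts of Mki67-carrying cells, while their summed number per cell was about the same or higher. Gene by gene this varied: per cell, 24 of 38 genes in HC and 17 of 39 in NC lay above 0. The classes themselves depend on depth, since a deeper cell more often shows an Mki67 UMI.

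**Figure D2:**
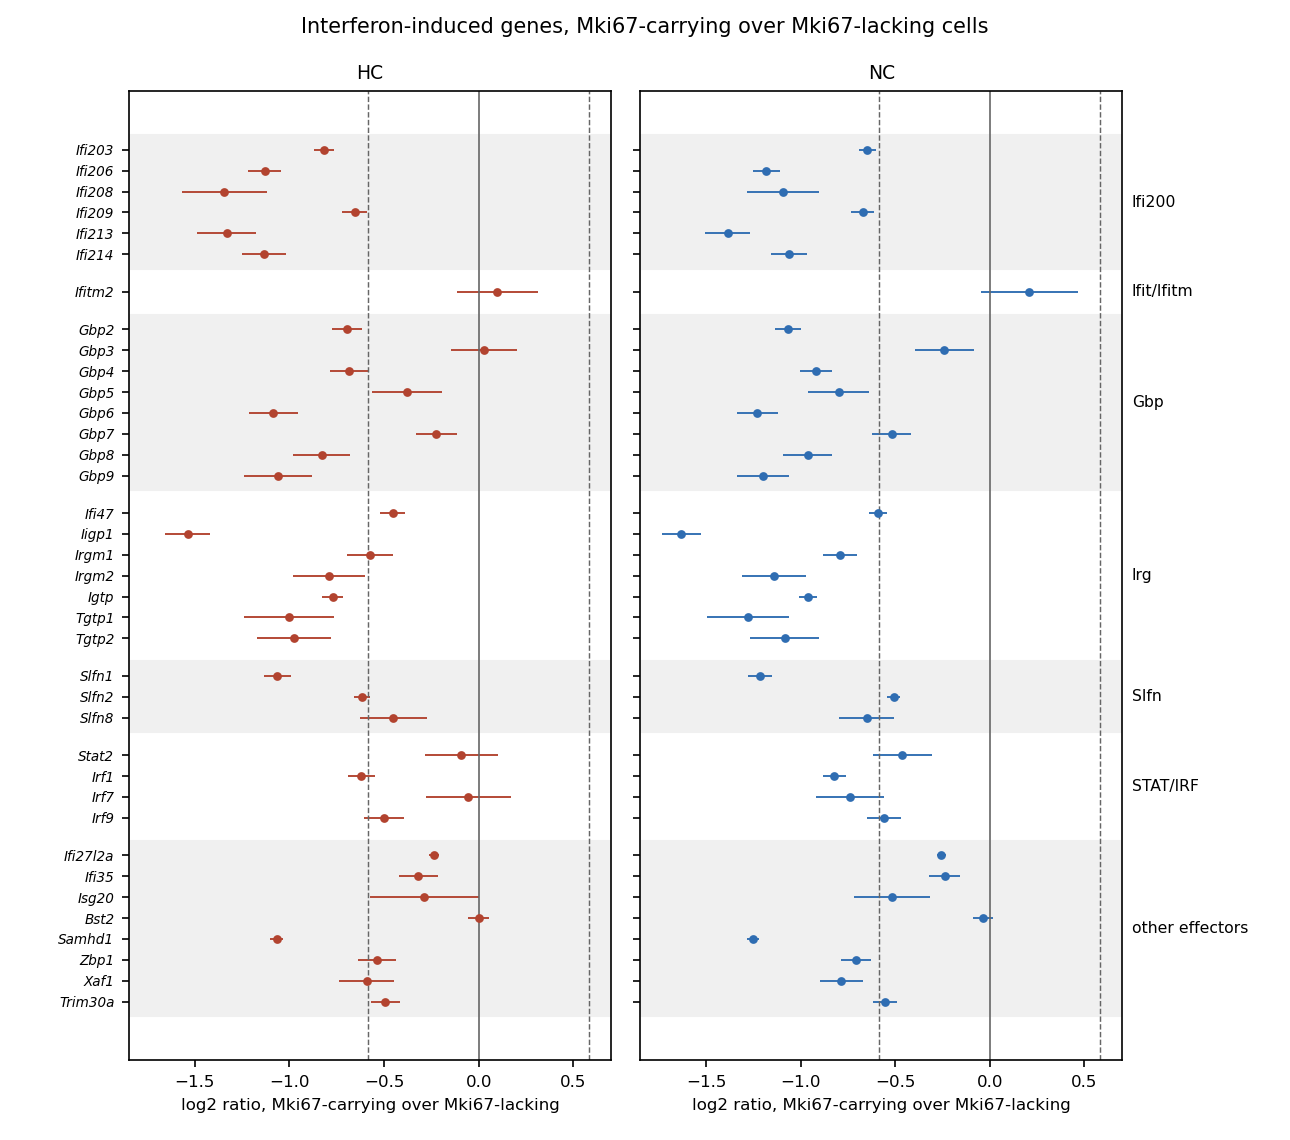
Log2 ratio of Mki67-carrying over Mki67-lacking cells for 37 interferon-induced genes measured in both libraries, HC and NC panels, with exact 95% intervals and dotted lines at 1.5-fold. Iigp1 lies lowest in both, at -1.54 in HC and -1.63 in NC, and Bst2, at 0.00 in HC and -0.04 in NC, lies on the zero line.

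Many genes of the Irg, Ifi200 and Gbp subfamilies were among them. Iigp1 had 14.5 CPM in Mki67-carrying and 42.0 CPM in Mki67-lacking HC cells (log2 ratio -1.54, -1.66 to -1.42), and 16.6 CPM in Mki67-carrying and 51.4 CPM in Mki67-lacking NC cells (-1.63, -1.73 to -1.53). Tgtp2 had log2 ratios of -0.98 in HC and -1.08 in NC, and Igtp of -0.77 in HC and -0.96 in NC. All 6 Ifi200 genes passed 1.5-fold in both libraries, with Ifi208 at -1.34 in HC and -1.09 in NC, Ifi209 at -0.66 in HC and -0.67 in NC, and Ifi203 at -0.82 in HC and -0.65 in NC. Ifi213 had 9.64 CPM in Mki67-carrying and 24.3 CPM in Mki67-lacking HC cells, and 13.3 CPM in Mki67-carrying and 34.7 CPM in Mki67-lacking NC cells. Of the 8 Gbp genes, 5 in HC and 6 in NC were lower. Gbp6 had 15.2 CPM in Mki67-carrying and 32.3 CPM in Mki67-lacking HC cells, and 16.7 CPM in Mki67-carrying and 39.1 CPM in Mki67-lacking NC cells. Gbp3 was an exception, with a log2 ratio of 0.03 (-0.15 to 0.20) in HC and -0.24 in NC. The median log2 ratio of the Irg genes was -0.79 in HC and -1.08 in NC, of the Ifi200 genes -1.13 in HC and -1.08 in NC, and of the Gbp genes -0.69 in HC and -0.94 in NC.

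Large differences were also seen for Samhd1 and Slfn1. Samhd1 had 220 CPM in Mki67-carrying and 460 CPM in Mki67-lacking HC cells (log2 ratio -1.07, -1.10 to -1.03), and 195 CPM in Mki67-carrying and 464 CPM in Mki67-lacking NC cells (-1.25, -1.28 to -1.22). Slfn1 had 50.2 CPM in Mki67-carrying and 105 CPM in Mki67-lacking HC cells (-1.06), and 49.8 CPM in Mki67-carrying and 116 CPM in Mki67-lacking NC cells (-1.22). These 2 stayed below 0 also as UMIs per cell. Slfn2 was less different, at -0.62 in HC and -0.51 in NC. Of the factors, Irf1 was lower in both (-0.62 in HC and -0.82 in NC). Irf7 had 8.52 CPM in Mki67-carrying and 8.86 CPM in Mki67-lacking HC cells (-0.06, -0.28 to 0.17), and 7.20 CPM in Mki67-carrying and 12.0 CPM in Mki67-lacking NC cells (-0.74, -0.92 to -0.56). Isg15 had 3.80 CPM in Mki67-carrying and 7.68 CPM in Mki67-lacking NC cells (-1.02), and it was under 5 CPM in both HC classes, at 3.08 CPM in Mki67-carrying and 4.73 CPM in Mki67-lacking cells.

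Not every effector followed. Bst2 had 137 CPM in both HC classes, and 111 CPM in Mki67-carrying and 114 CPM in Mki67-lacking NC cells. Ifi27l2a had 616 CPM in Mki67-carrying and 725 CPM in Mki67-lacking HC cells (log2 ratio -0.24), and 500 CPM in Mki67-carrying and 596 CPM in Mki67-lacking NC cells (-0.26). Ifitm1 had 13.8 CPM in Mki67-carrying and 14.1 CPM in Mki67-lacking HC cells (-0.03, -0.21 to 0.15), and 4.64 CPM in Mki67-carrying and 2.82 CPM in Mki67-lacking NC cells (0.72, 0.41 to 1.04), under 5 CPM in both. Ifitm2 had 10.2 CPM in Mki67-carrying and 9.50 CPM in Mki67-lacking HC cells, and 5.30 CPM in Mki67-carrying and 4.58 CPM in Mki67-lacking NC cells (0.21, -0.05 to 0.47). Other interferon-induced genes outside the 52, from a list of further induced genes, showed less. Of 39 measured, 4 in HC and 7 in NC were at least 1.5-fold lower in Mki67-carrying cells, where 3.89% of all genes in HC and 4.33% in NC were. In each library 1 was higher, where 11.7% in HC and 10.5% in NC were. Their medians were -0.26 in HC and -0.32 in NC. Socs1, which blocks the receptor kinases, had log2 ratios of -0.93 in HC and -0.75 in NC, and Ifnar1 of -0.59 in HC and -0.79 in NC. None of 11 genes of class I antigen presentation passed 1.5-fold in either library, too few genes to set against those shares.

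**Figure D3:**
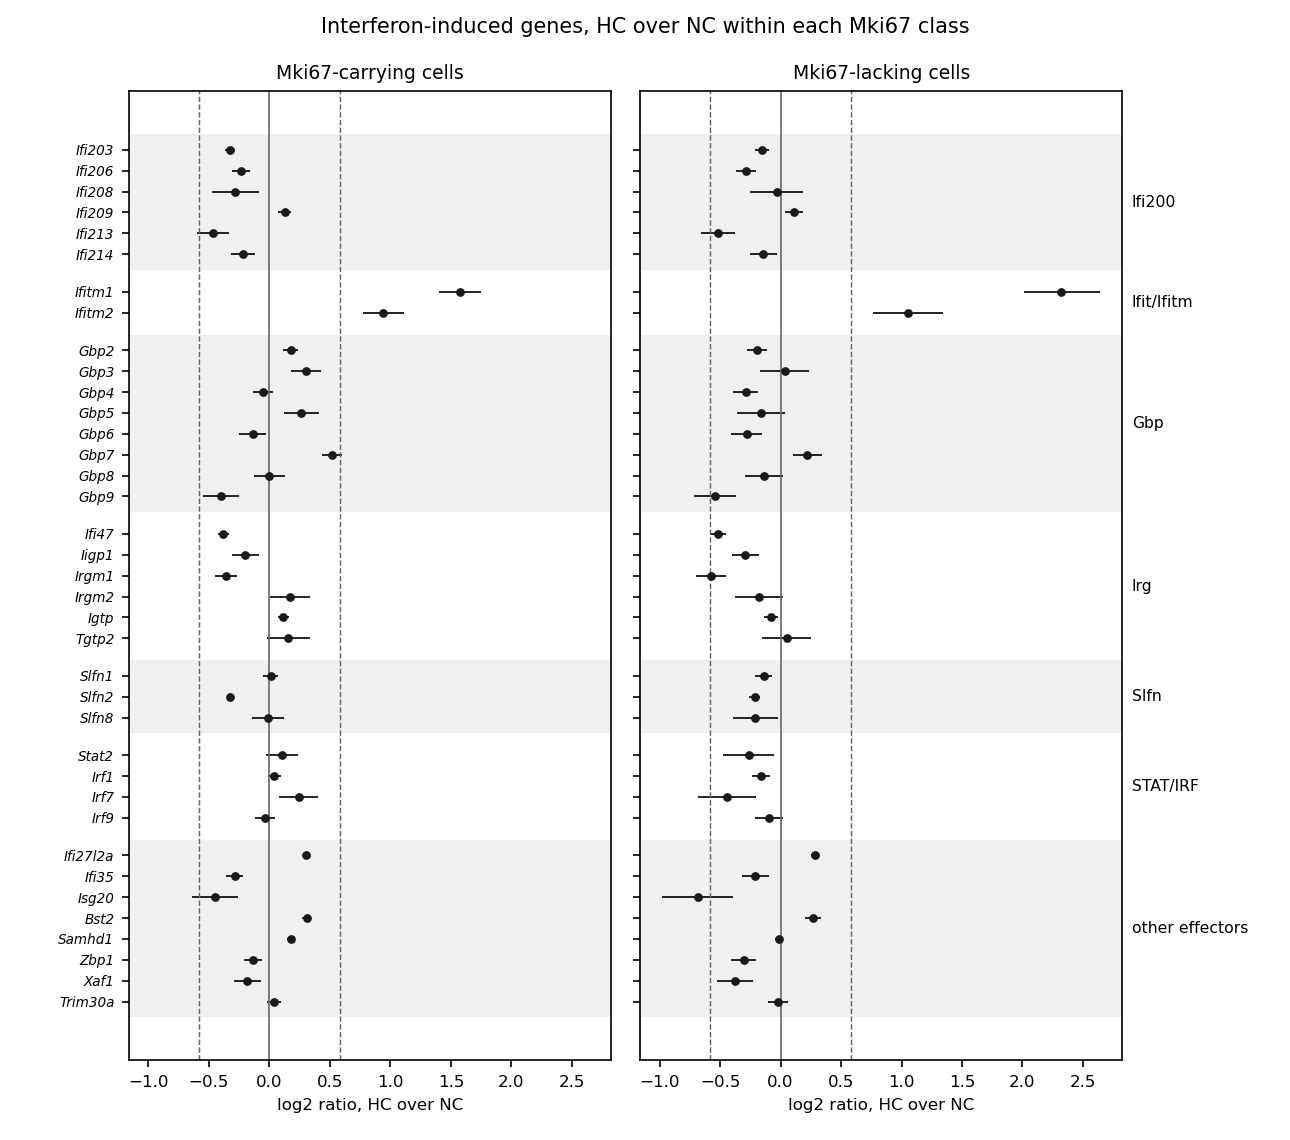
Log2 ratio of HC over NC in Mki67-carrying and in Mki67-lacking cells for the genes measured in both, with exact 95% intervals. Ifitm1 is highest in both (1.57 in Mki67-carrying and 2.32 in Mki67-lacking cells), and Irf7 lies at 0.24 in Mki67-carrying and -0.44 in Mki67-lacking cells.

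Since Mki67-carrying cells were more frequent in HC, the libraries were also compared within each class. Within Mki67-carrying cells the median of these log2 ratios was 0.00, with 18 genes above 0 and 19 below. There, Ifitm1 and Ifitm2 were at least 1.5-fold higher in HC, where 1.78% of all genes were, and none of 37 was at least 1.5-fold lower, where 1.54% were. Within Mki67-lacking cells the median was -0.17 and 32 of 40 genes lay below 0, a count not given here for all genes. The same 2 genes were higher, where 1.94% of all genes were, and 3 were lower, where 1.92% were. Those 3 were Isg15 (4.73 CPM in HC and 7.68 CPM in NC, log2 ratio -0.70, -1.03 to -0.38), Isg20 (5.67 CPM in HC and 9.09 CPM in NC, -0.68) and Rtp4 (3.45 CPM in HC and 5.62 CPM in NC, -0.70). Isg15 and Rtp4 reached 5 CPM there only through NC. Ifitm1 (14.1 CPM in HC and 2.82 CPM in NC) and Ifitm2 (9.50 CPM in HC and 4.58 CPM in NC) did so only through HC. At a floor of 20 CPM no gene passed 1.5-fold in this class. With both libraries weighted to the same shares of the 4 classes by Egr2 and Mki67, no gene was at least 1.5-fold lower in HC, where 1.18% of all genes were, and Ifitm1 (1.74) and Ifitm2 (0.98) stayed higher, where 1.64% were. The median was -0.07, and -0.03 over all genes. Ifi213 then had a log2 ratio of -0.51, Gbp9 of -0.47 and Iigp1 of -0.27, and Samhd1 had one of 0.07.

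In 3 genes the intervals lay on opposite sides of 0 in the 2 classes. How often all genes do so, or change sign between the classes, was not counted. Gbp2 had 50.5 CPM in HC and 44.7 CPM in NC in Mki67-carrying cells (0.18, 0.11 to 0.24), and 81.8 CPM in HC and 93.7 CPM in NC in Mki67-lacking cells (-0.20, -0.28 to -0.12). Igtp had log2 ratios of 0.11 (0.07 to 0.16) in Mki67-carrying cells and -0.08 (-0.14 to -0.02) in Mki67-lacking cells. Irf7 had 8.52 CPM in HC and 7.20 CPM in NC in Mki67-carrying cells (0.24, 0.08 to 0.40), and 8.86 CPM in HC and 12.0 CPM in NC in Mki67-lacking cells (-0.44, -0.68 to -0.20). Of the 37 genes measured in both classes, 27 kept the sign of their ratio and 10 did not, most of the 10 with an interval that held 0 in at least 1 class. Among those that kept it, Irgm1 had log2 ratios of -0.36 in Mki67-carrying and -0.57 in Mki67-lacking cells, Ifi47 of -0.38 in Mki67-carrying and -0.52 in Mki67-lacking cells, and Gbp7 of 0.52 in Mki67-carrying and 0.22 in Mki67-lacking cells.

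Egr2-carrying cells were few: 279 in HC (2.05%) and 538 in NC (3.94%). They showed the same genes as a somewhat smaller part of their UMIs, with summed levels of 1960 CPM in Egr2-carrying and 2367 CPM in Egr2-lacking HC cells, and 2060 CPM in Egr2-carrying and 2503 CPM in Egr2-lacking NC cells. The median log2 ratio was -0.34 in HC and -0.34 in NC, against 0.02 in each for all genes. With class and levels both taken from cells thinned to 2000 UMIs it was -0.093 in HC and -0.20 in NC. After thinning far fewer cells carried Egr2: 86 without and 1 with an Ifitm1 UMI in HC, and 145 without and 2 with one in NC. Of 38 measured genes, 34 in HC and 35 in NC lay below 0, a count not given here for all genes. In HC, 6 were at least 1.5-fold lower, where 2.92% of all genes were, and 1 was higher, where 4.05% were. In NC, 4 were lower, where 1.98% of all genes were, and none was higher, where 3.68% were. As UMIs per cell with no scaling, the median was 0.04 in HC and 0.12 in NC. On that scale 2 genes were at least 1.5-fold higher and 3 lower in HC, and 1 higher and none lower in NC. Egr2-carrying cells were also deeper, which adds 0.38 in HC and 0.46 in NC to every gene's log2 ratio.

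**Figure D4:**
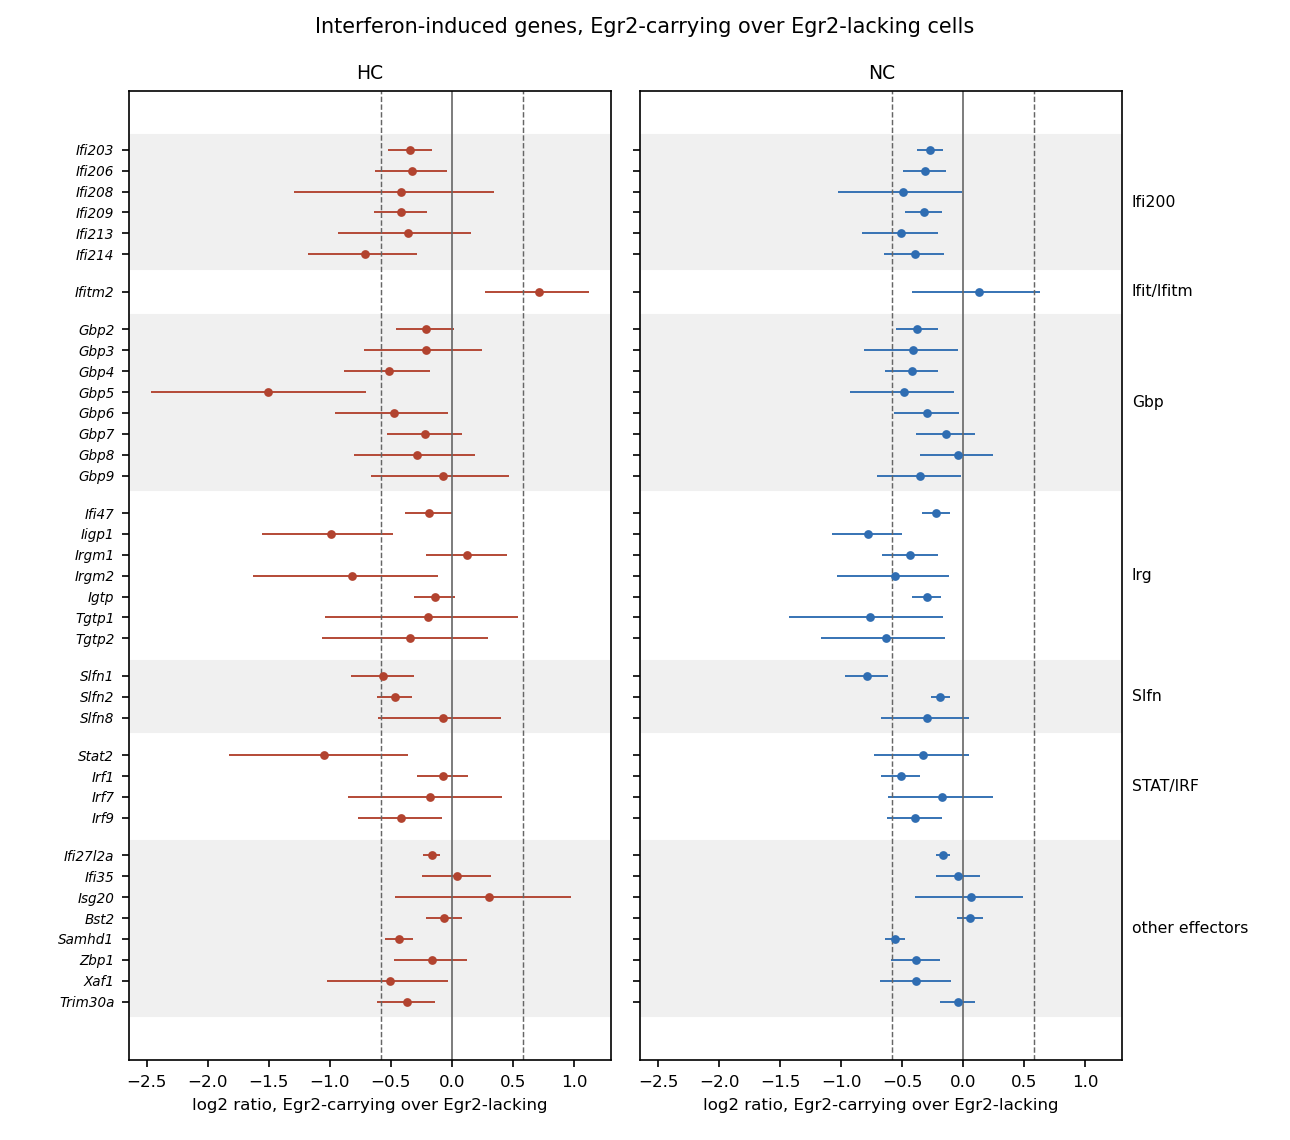
Log2 ratio of Egr2-carrying over Egr2-lacking cells for 37 interferon-induced genes measured in both libraries, HC and NC panels, with exact 95% intervals, which are wide because the Egr2-carrying class holds 279 HC and 538 NC cells. Iigp1 lies below the 1.5-fold line in both (-0.99 in HC and -0.78 in NC).

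Iigp1 was the gene past 1.5-fold in both libraries, with 10.2 CPM in Egr2-carrying and 20.4 CPM in Egr2-lacking HC cells (log2 ratio -0.99, -1.56 to -0.49), and 17.0 CPM in Egr2-carrying and 29.2 CPM in Egr2-lacking NC cells (-0.78, -1.08 to -0.50). The HC value rests on 31 UMIs. With class and levels both taken from thinned cells it turned to 0.50, a value from a much smaller class and fewer UMIs still. Slfn1 had 41.9 CPM in Egr2-carrying and 62.0 CPM in Egr2-lacking HC cells (-0.56, -0.83 to -0.31), and 42.9 CPM in Egr2-carrying and 74.1 CPM in Egr2-lacking NC cells (-0.79, -0.97 to -0.61). Samhd1 had log2 ratios of -0.43 (-0.55 to -0.32) in HC and -0.56 (-0.64 to -0.47) in NC. In HC the other lower genes were Gbp5 (12 UMIs, -1.51), Stat2 (17 UMIs, -1.04, and 0.66 in thinned cells), Ifitm1 (-0.89), Irgm2 (16 UMIs, -0.82) and Ifi214 (-0.72), and in NC they were Tgtp1 (-0.76) and Tgtp2 (-0.63). Ifitm2 was the higher gene in HC, with 16.2 CPM in Egr2-carrying and 9.87 CPM in Egr2-lacking cells (0.71, 0.27 to 1.13), and had 5.50 CPM in Egr2-carrying and 5.03 CPM in Egr2-lacking NC cells. Bst2 differed in neither library by more than its interval.

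The lower share in Egr2-carrying cells was larger among Mki67-lacking than among Mki67-carrying cells. Among Mki67-carrying cells the genes summed to 1829 CPM in Egr2-carrying and 2149 CPM in Egr2-lacking HC cells. In NC these sums were 1918 CPM and 2060 CPM. Among Mki67-lacking cells they summed to 2537 CPM in Egr2-carrying and 3209 CPM in Egr2-lacking HC cells. In NC these sums were 2447 CPM and 3336 CPM. Among the Mki67-lacking cells the median log2 ratio was -0.34 in HC and -0.48 in NC, against 0.03 in each for all genes. There 32 of 39 genes in HC and 36 of 39 in NC lay below 0, a count not given here for all genes. In HC, 11 of the 39 were at least 1.5-fold lower, where 12.6% of all genes were, and 2, Ifitm2 and Ifih1, were higher, where 14.1% were. In NC, 14 of the 39 were lower, where 8.79% of all genes were, and none was higher, where 9.46% were. In that class Slfn1 had 60.5 CPM in Egr2-carrying and 106 CPM in Egr2-lacking HC cells (-0.81, -1.34 to -0.32), and 63.3 CPM in Egr2-carrying and 118 CPM in Egr2-lacking NC cells (-0.90, -1.19 to -0.62). Samhd1 had 279 CPM in Egr2-carrying and 472 CPM in Egr2-lacking NC cells (-0.76, -0.90 to -0.63). These Egr2-carrying cells numbered 81 in HC and 213 in NC, so most single genes rest on few UMIs.

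The interferon-gamma gene went the other way in Egr2-carrying cells. Ifng had a log2 ratio of 3.83 in HC and 3.28 in NC, and the factor Irf8 of 0.98 in HC and 1.11 in NC. Socs3, an inhibitor of cytokine receptors, had -1.56 in HC and -0.76 in NC, and the receptor genes Ifngr1 (-0.57 in HC and -0.67 in NC) and Ifnar1 (-0.57 in HC and -0.42 in NC) were lower as well. Of the further induced genes, 2 of 39 in each library were at least 1.5-fold lower, where 2.92% of all genes in HC and 1.98% in NC were. None was higher, where 4.05% in HC and 3.68% in NC were.

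Within Egr2-carrying cells, HC over NC, Ifitm1 (7.59 CPM in HC and 3.88 CPM in NC, log2 ratio 0.97) and Ifitm2 (16.2 CPM in HC and 5.50 CPM in NC, 1.56) were higher, where 6.27% of all genes were. In the same class 5 of 37 genes were lower, where 5.92% were: Gbp5 (3.96 CPM in HC and 7.93 CPM in NC), Stat2 (-0.77), Iigp1 (-0.73), Ifi214 (-0.68) and Slfn2 (141.5 CPM in HC and 222 CPM in NC, -0.65, -0.81 to -0.49). Thinning turned Ifitm1, Gbp5 and Ifi214 round in this small class, which thinning makes smaller still, so the thinned values rest on few UMIs. Within Egr2-lacking cells the values were close to those of the whole libraries, with Ifitm1 and Ifitm2 higher, where 1.92% of all genes were, and Ifi213, Gbp9 and Isg20 lower, where 1.26% were.

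Of the signalling genes outside the 52, Ifng differed most between the libraries, with 208 UMIs in HC and 913 in NC (1.82 CPM in HC and 7.89 CPM in NC, log2 ratio -2.12, -2.34 to -1.90). No UMI of Ifnb1, Ifna1, Ifna2 or Ifna4 was found in either library, and a limit of 3 UMIs allows up to 0.0262 CPM in HC and 0.0259 CPM in NC. The receptor genes Ifnar1 (64.4 CPM in HC and 71.3 CPM in NC, -0.15), Ifnar2 (-0.05) and Ifngr1 (224 CPM in HC and 192 CPM in NC, 0.22) differed little. Ifngr2 had 4.16 CPM in HC and 3.77 CPM in NC. Socs1 had a log2 ratio of -0.22. None of 6 other IRF genes, 9 sensor genes or 11 class I genes passed 1.5-fold. Of all genes 1.93% were higher and 1.47% lower, so lists of these sizes would hold few or none. Of 39 further induced genes none passed 1.5-fold either. Their median was -0.01, from Ly6a (466 CPM in HC and 355 CPM in NC, 0.39) to Shisa5 (633 CPM in HC and 815 CPM in NC, -0.36).

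Single cells rarely carried several of the type I genes at once. A core of 10 genes (Ifit1, Ifit3, Isg15, Isg20, Usp18, Rsad2, Irf7, Rtp4, Bst2 and Zbp1) was counted after thinning to 2000 UMIs. At least 3 of them were found in 22 of 13523 HC cells (0.163%, 0.102% to 0.246%) and in 59 of 13508 NC cells (0.437%, 0.333% to 0.563%). Unthinned, the shares were 4.14% in HC and 6.09% in NC. Among Mki67-lacking cells the thinned shares were 0.290% in HC and 0.717% in NC. Among Mki67-carrying cells they were 0.107% (0.051% to 0.196%) in HC and 0.194% (0.106% to 0.325%) in NC, with intervals that overlap. None of the 277 Egr2-carrying HC cells had 3, and 1 of 537 NC cells did. Thinned, these cells held 44000 UMIs in HC and 118000 in NC. Of the members outside the core at 5 CPM or more in the other cells, 19 of 34 in HC were at least 1.5-fold higher in the cells with 3, where 24.9% of all such genes were, and 4 were at 0 in them. In NC 26 of 33 were, where 20.1% of all were. Intervals lay above 0 for 9 of these genes in HC and 21 in NC, as for 1.64% of all genes in HC and 3.91% in NC. Iigp1 had 114 CPM in such cells and 24.3 CPM in the others in HC (2.22, 0.60 to 3.45), and 169 CPM in such cells and 37.4 CPM in the others in NC (2.18, 1.46 to 2.81). Gbp2 had log2 ratios of 1.56 (0.34 to 2.54) in HC and 1.13 (0.39 to 1.78) in NC.

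**Figure D5:**
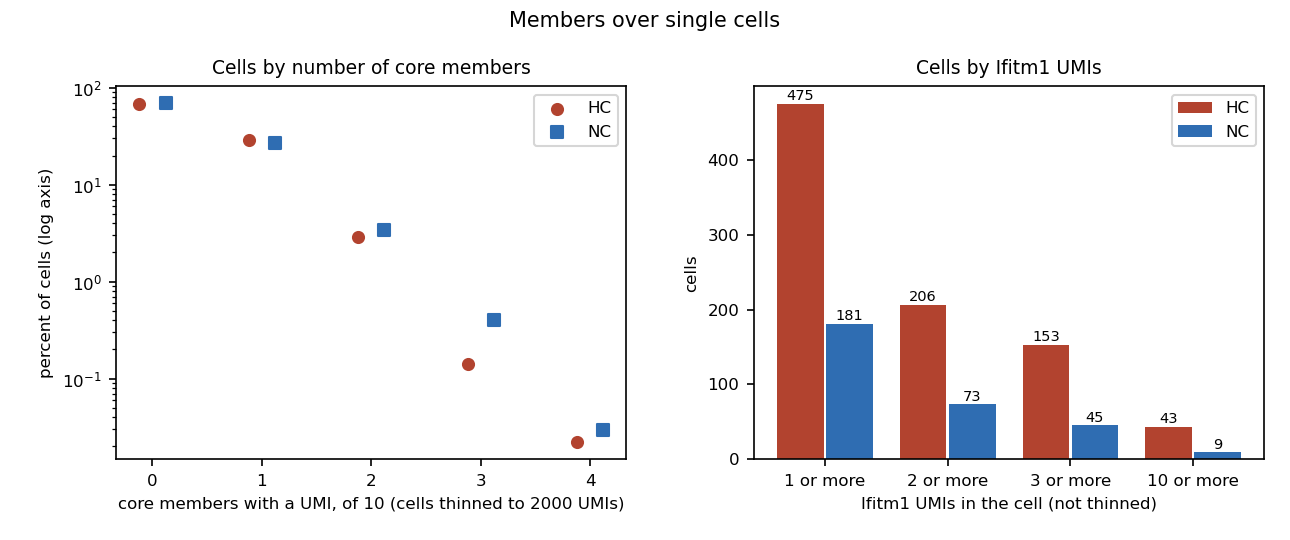
Left, percent of cells thinned to 2000 UMIs, on a log axis, by the number of the 10 core genes with a UMI, in HC and NC. Right, number of cells by Ifitm1 UMIs, not thinned, in HC and NC. Cells with 1 or more Ifitm1 UMIs number 475 in HC and 181 in NC, and cells with 10 or more number 43 in HC and 9 in NC.

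Ifitm1 was held by few cells. It had at least 1 UMI in 475 HC and 181 NC cells, and 153 HC cells with 3 or more held 1212 of the 1587 UMIs (76.4%), as 45 NC cells held 301 of 465 (64.7%). The highest cell had 29 UMIs in HC and 21 in NC. Ifitm2 and Ifitm3 were found in the same cells more often than in others. In thinned cells, Ifitm2 was found in 9.77% of Ifitm1-carrying and 1.35% of Ifitm1-lacking HC cells, and in 9.33% of Ifitm1-carrying and 0.901% of Ifitm1-lacking NC cells. Ifitm3 was found in 7.91% of Ifitm1-carrying and 0.669% of Ifitm1-lacking HC cells, and in 5.33% of Ifitm1-carrying and 0.469% of Ifitm1-lacking NC cells. These Ifitm1-carrying cells had median depths before thinning of 7179 UMIs in HC and 6693 in NC, close to 7474 in HC and 6958 in NC for the rest. Cells with 3 or more Ifitm1 UMIs also had higher levels of S100a4 (393 CPM in them and 140 CPM in the others in HC, and 224 CPM in them and 92.3 CPM in the others in NC) and of Lgals3 (343 CPM in them and 144 CPM in the others in HC, and 207 CPM in them and 78.7 CPM in the others in NC), genes often raised in effector and memory T cells. Cd8a was found in 38.6% of Ifitm1-carrying and 37.9% of Ifitm1-lacking HC cells, and in 45.3% of Ifitm1-carrying and 48.7% of Ifitm1-lacking NC cells. Without the cells that held 3 or more Ifitm1 UMIs, which takes out cells by the gene itself, Ifitm1 had 375 UMIs in HC and 164 in NC, below 5 CPM in both, with a log2 ratio of 1.22 and its interval above 0. Ifitm2 then had 9.29 CPM in HC and 4.88 CPM in NC (0.93, 0.78 to 1.08).

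Ifit1 was spread differently in the libraries. In HC, 57 cells held its 81 UMIs and 1 cell held 22 of them. That cell, of 7820 UMIs, had 25 of the 52 genes, with 5 UMIs of Ifit3, 6 of Bst2 and 4 of Isg15. In NC, 196 cells held the 213 UMIs and none held more than 2, so the ratio of the totals leaves out how many cells were involved.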

How the data were processed

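Gene expression was measured as UMI counts in single cells, per the labels' protocols by droplet capture and 3' tagging (10x v3.1). The deposited count matrices hold whole-number UMI counts per gene and barcode, and were written by Cell Ranger 6.1.2 per the file headers; Cell Ranger 5.0.0 is given instead in the submitters' processing notes, beside Seurat 3.2.3 and genome build mm10. Which version made the counts is therefore not settled. A 3' count is 1 tag per transcript, so levels are not divided by gene length and are not compared between genes.

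From these counts, barcodes with fewer than 500 genes, fewer than 1000 UMIs or over 10% mitochondrial UMIs were left out (1878 in HC and 1157 in NC); doublets were not removed. UMIs were summed per library or class and divided by the class total (CPM). A cell carried a gene with at least 1 UMI of it. Measured means 5 CPM in either group, so a gene can be measured through only the group where it is higher. Called means 1.5-fold, and a count of 0 allows 3 UMIs. Intervals are exact at 95%, and PCR and library error are not in them. Python 3.11.15, numpy 2.4.6, scipy 1.17.1, pandas 2.3.3 and matplotlib 3.10.9 were used; R 4.3.3 with edgeR 4.0.16 and DESeq2 1.42.0 gave scaling factors only. The ratio step was tested on simulated counts. Gene positions come from GENCODE vM21 (GRCm38), and promoters from RefSeq GRCm38.p6.

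No replicate exists, so no test or p-value is given. In detail the text names, in each subfamily, up to 4 measured genes by size of the log2 ratio and the one of highest CPM (up to 3 in class comparisons), up to 4 per list of other pathway genes, and fixed pathway genes; exceptions given in the text, such as genes under 5 CPM, the members past the fold and the Ifitm1-carrying cells, were chosen after their values were seen. The members and lists were chosen with earlier results of these data known. Alternatives covered scaling, thinning to 2000 UMIs, cell filters, floors, folds and class definitions.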

Additional observations from a re-analysis of the deposited data

Results flagged for a closer look

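In 4 genes the ratio of HC over NC had opposite signs in a pair of cell classes, with both intervals clear of 0; the differences themselves were not tested. Irf1 was at 0.27 (0.01 to 0.53) in Egr2-carrying cells and -0.17 (-0.21 to -0.12) in Egr2-lacking cells, a difference of 0.44 on the log2 scale. Irf7 differed by 0.68 between Mki67-carrying and Mki67-lacking cells, Gbp2 by 0.37 and Igtp by 0.19.

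Barcodes that were left out, mostly for over 10% mitochondrial UMIs, also held UMIs of the 52 genes. These genes summed to 2184 CPM over the left-out barcodes of HC and 2261 CPM over those of NC.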

How the results depend on the processing

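Each group has 1 library, so leaving out a replicate was not possible, and every value rests on 1 library. No paired analysis was possible because each group has 1 library and both are numbered 1. Of the values other than single genes, 99 held, 53 moved and 3 reversed over the alternatives tried; of single genes past the fold, 547 held, 93 fell below it and 18 reversed. The Egr2-carrying classes rest on 279 HC and 538 NC cells before thinning, and on far fewer where the class was taken from thinned cells. The cause of the changes was not tested. Shares of all genes past the fold were counted for the main settings, the same class shares, and Egr2 classes within Mki67-lacking cells. For the other settings below they were not, so a larger count of genes there may not be particular to these genes.

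HC over NC in all kept cells had 4 genes lower and 2 higher. Lower counts were 2 under TMM scaling, 2 with no cell filter, 2 in cells with Cd8 and no other-cell marker, 2 relative to the median of all genes (chosen after seeing the data), 7 after thinning, 8 with no floor, 1 at a floor of 20 CPM, 14 at the one fold tried below 1.5, 0 at 2-fold and 0 at the same class shares. Higher counts were 4 with no floor, 0 at 20 CPM, 1 at 2-fold and 1 without the cells holding 3 or more Ifitm1 UMIs (chosen after seeing the data), where Ifitm1 fell under 5 CPM in both. The median of -0.16 became -0.28 at 20 CPM.

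For Egr2-carrying over Egr2-lacking cells in HC, 7 genes passed the fold (1 higher, 6 lower), and 14 did after thinning class and levels (4 higher, 10 lower), 2 at 20 CPM and 2 at 2-fold (all lower) and 13 within Mki67-lacking cells (2 higher, 11 lower); the median became -0.093 after thinning and 0.044 as UMIs per cell. Thinning reversed Iigp1 to 0.50 and Stat2 to 0.66, both on few UMIs. Within Mki67-lacking cells, 14.1% of all genes were higher and 12.6% lower in HC, and 9.46% were higher and 8.79% lower in NC. In NC 4 genes passed, all lower, and 11 did with at least 2 Egr2 UMIs (1 higher, 10 lower), 21 after thinning (6 higher, 15 lower), 2 at 20 CPM (both lower), 0 at 2-fold, 14 within Mki67-lacking cells (all lower) and 1 as UMIs per cell (Ifitm2, higher), where the median was 0.12.

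For Mki67-carrying over Mki67-lacking cells in HC, 21 genes passed, all lower, and 12 did after thinning and 10 at 2-fold, all lower, and 7 as UMIs per cell (6 higher, 1 lower; chosen after seeing the data). The median of -0.62 became -0.56 with at least 2 Mki67 UMIs, -0.41 after thinning, -0.67 relative to the median of all genes and 0.17 as UMIs per cell. Counting UMIs per cell adds 0.79 in HC and 0.74 in NC to every gene's log2 ratio. On that scale 7 genes reversed in HC: Ifi209 at 0.13, Gbp2 at 0.089, Gbp4 at 0.10, Igtp at 0.014, Slfn2 at 0.17, Irf1 at 0.17 and Xaf1 at 0.19. In NC 28 passed, all lower, and 15 did at 2-fold, all lower, and 4 as UMIs per cell (2 higher, 2 lower); the median of -0.80 became -0.63 after thinning and -0.058 as UMIs per cell. There Ifi203 was at 0.094, Ifi209 at 0.071, Ifi47 at 0.15, Slfn8 at 0.092, Irf7 at 0.00036 and Zbp1 at 0.034.

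For HC over NC within classes, 7 genes passed in Egr2-carrying cells (2 higher, 5 lower), and 17 did after thinning (12 higher, 5 lower) and 2 at 20 CPM (both lower); the median of -0.22 became 0.13, Ifi214 0.49, Ifitm1 -0.24 and Gbp5 0.76 after thinning. In Egr2-lacking cells 5 passed (2 higher, 3 lower), and 9 did after thinning (2 higher, 7 lower) and 1 at 20 CPM (lower), where the median was -0.29. In Mki67-carrying cells 2 passed, both higher, and 4 did after thinning (3 higher, 1 lower) and 0 at 20 CPM. In Mki67-lacking cells 5 passed (2 higher, 3 lower), and 0 did at 20 CPM. The share of cells with several core genes was 3.05% in HC and 3.85% in NC at 2 or more, 0.0222% in HC and 0.0296% in NC at 4 or more, 4.14% in HC and 6.09% in NC unthinned, and 0.852% in HC and 1.84% in NC thinned to 4000 UMIs.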
